A study of Mus musculus with 6 samples.

Results

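Wild-type mouse megakaryocytes are described here by the level at which each gene was measured, with no comparison to knockdown cells. They are the 3 arrays titled Gata-1 Wild Type A, B and C, and the titles alone chose them. The other 3 of the 6 arrays of the series hold a Gata-1 Knock Down, a reduction of the transcription factor gene Gata1. Per the labels, progenitors were taken from the livers of fetuses at embryonic day 13.5, matured into megakaryocytes in a differentiation medium, and were collected on a gradient of bovine serum albumin before total RNA was taken. Each RNA was measured on 1 Affymetrix mouse array. Mouse strain, the cytokines of the medium, and whether each letter marks a separate culture, litter or pool of livers are not stated in the labels, so the spread between the arrays may be partly technical. The cells were cultured and enriched rather than taken from an animal, and the RNA is that of a bulk preparation, in which fewer cells of a type and less RNA per cell cannot be told apart.

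Megakaryocytes are the large polyploid cells that shed platelets into the blood. As they mature they repeat DNA replication without completing cell division, build the membrane and granules that platelets will carry, and extend long microtubule-based projections from which platelets are released. The transcription factors GATA1, FOG1, FLI1, RUNX1, the TAL1 complex and NF-E2 control much of this program, and the hormone thrombopoietin drives it. Fetal liver is the main site of blood formation in the midgestation mouse, so its progenitors can also give rise to red cells, granulocytes, macrophages and mast cells.

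The level of a gene is the mean over the 3 arrays of its brightest probe set among those that name only 1 gene, in the linear signal units of the deposited table, and errors are SD with n = 3. Such a level ranked 18193 named genes. The background limit of an array was the highest signal among 27 probe sets for bacterial transcripts that had not been added to the sample, and it was 65.8, 65.3 and 60.7 on A, B and C. A gene is called above background where it exceeded that limit on all 3 arrays, and at background where it did so on none. By these rules 64.1% of all genes were above background, 22.4% were at background and 30.2% exceeded 10 times the limit on each array. Counts of group members given below are to be read beside these shares. Signals of different probe sets depend on how well their probes bind as well as on the RNA, and they are not scaled to transcript length. Among the 7143 genes above background that have several probe sets, the brightest was a median of 2.31 times the second for one and the same gene, and in 1 gene in 10 it was over 15.0 times. Of the 4 added control transcripts, BioD gave 4610.03 ± 346 by its 3' probe set and 1010.07 ± 30.4 by its 5' one, while the same pairs lay closer for BioB at 313 ± 38.6 and 363 ± 37.5, BioC at 711 ± 34.4 and 849 ± 44.9, and CreX at 14394 ± 249 and 10397 ± 807. An order between genes below is therefore an order of signals. A ratio under 2.31 is no wider than that of the median gene to itself, while 14.5% of genes showed one over 10.

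The cells carried the markers of their label. All 27 megakaryocyte and platelet markers that have a named probe set exceeded 10 times the background limit on each array, against 30.2% of all genes, and their median signal was 13932, against 184 over all genes. Gp1ba, also on that list, was not analysed here. The 5 defining markers were among the brightest messages on the array. Pf4, which encodes the alpha granule chemokine platelet factor 4, read 17647, 16186 and 17526.8 on A, B and C. Itga2b, the alpha subunit of the platelet fibrinogen receptor, read 19181, 17866.5 and 18382.7. Array B was the lowest of the 3 for both, and the lowest reading of Itga2b was still above the highest of Pf4. Gp1bb, a subunit of the receptor for von Willebrand factor, gave 16738.3, 15944.3 and 16961, and Vwf, the adhesive protein that this receptor binds, gave 15630.6, 14926.6 and 15908.7. Tubb1, the beta-tubulin of the platelet microtubule coil, stood at 13284, 12891.9 and 13719.2. B was again the lowest array for each of the 3, and their ranks among all genes were 43, 58 and 117.

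**Figure D1:**
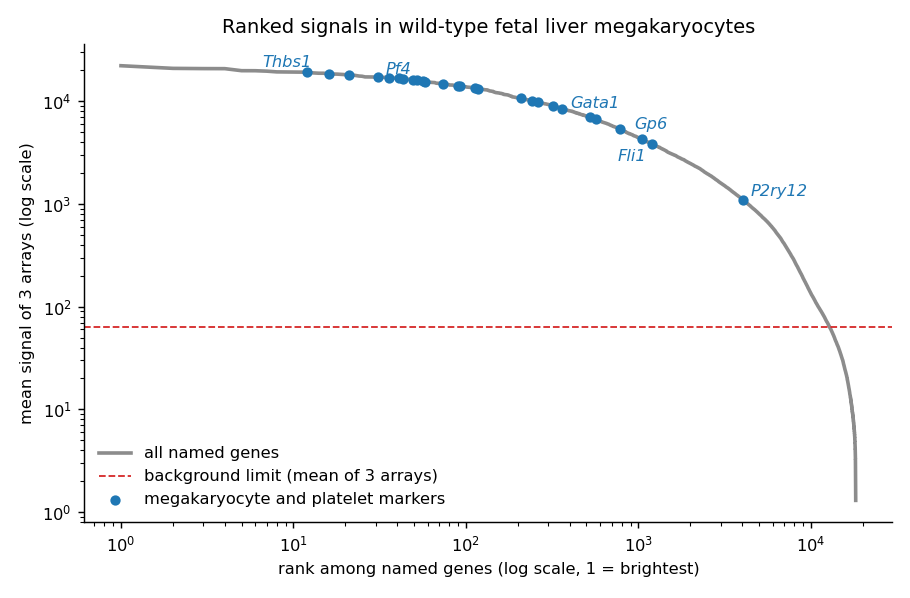
Mean signal of each of the 18193 named genes (y axis, log scale) against its rank (x axis, log scale), with the 27 megakaryocyte and platelet markers as blue points and the mean background limit as a dashed red line. The markers lie between 1089 (P2ry12) and 19180.2 (Thbs1), all far to the left of the rank at which the curve crosses the limit.

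To show the DNA in front of some of these genes, the 100 bases before the start site are printed for 5 markers, from RefSeq on GRCm38.p6 and on the coding strand. Pf4 and Ppbp are neighbouring chemokine genes on chromosome 5. Itga2b was the second brightest marker, and Gp9 and Gp5 encode subunits of the receptor for von Willebrand factor. Capitals mark GATAA, the core that GATA factors bind, and GGAAG, a core of ETS factor sites, each on either strand (as TTATC or CTTCC).
Pf4, chr5:90772335-90772434, plus strand: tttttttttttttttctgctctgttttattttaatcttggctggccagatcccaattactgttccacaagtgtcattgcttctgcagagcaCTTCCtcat
Ppbp, chr5:90768418-90768517, plus strand: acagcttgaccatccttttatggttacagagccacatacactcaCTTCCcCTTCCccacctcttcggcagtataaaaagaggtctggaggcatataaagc
Itga2b, chr11:102469884-102469983, minus strand: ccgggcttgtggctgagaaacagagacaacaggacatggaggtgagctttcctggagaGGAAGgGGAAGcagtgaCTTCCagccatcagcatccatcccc
Gp9, chr6:87777970-87778069, plus strand: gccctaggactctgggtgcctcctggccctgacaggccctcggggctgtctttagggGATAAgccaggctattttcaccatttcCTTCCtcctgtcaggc
Gp5, chr16:30310782-30310881, minus strand: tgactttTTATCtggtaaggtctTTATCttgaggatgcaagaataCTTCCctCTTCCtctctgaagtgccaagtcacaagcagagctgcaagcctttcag
The window of Gp5 holds 2 matches to GATAA and 2 to GGAAG, and that of Gp9 holds 1 of each. Those of Pf4, Ppbp and Itga2b hold 1, 2 and 3 matches to GGAAG and 0 to GATAA. The 5 do not stand for all markers. The 100-base windows of Clec1b, Cd9, Plek, Treml1, Alox12, F5, Gata1, Gp6 and 1 Mef2c promoter hold 0 matches to either motif. The other listed windows hold at least 1. Over the whole 250 bases before the start, 9 of the 23 promoters listed for these markers hold GATAA and 20 hold GGAAG, which is 39.1% and 87.0%. Of all 32851 promoters in that table, 22.6% and 64.1% do, and of the 108 promoters of the 100 brightest genes 21.3% and 66.7%. A match to one motif can share 1 base with a match to the other, and a match is a run of letters and not a bound site. The 23 promoters belong to 21 of the 27 named markers, and Mef2c is counted by several promoters. The remaining markers, Vwf and Thbs1 among them, have no entry in the table.

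The brightest ranked gene of wild-type megakaryocytes was Tmsb4x, which encodes the actin-sequestering peptide thymosin beta 4 and was first on each array at 23171.2, 21181.8 and 22177.5. Behind it came Eef1a1, the elongation factor that brings transfer RNA to the ribosome, at 20898 ± 926, then the ribosomal protein gene Rpl41 at 20788.5 ± 1335 and cytoplasmic gamma-actin, Actg1, at 20763 ± 1331. The growth-related protein gene Tpt1 read 19840 ± 1359 and the alpha-tubulin gene Tuba4a 19822 ± 729. Ldha, the lactate dehydrogenase subunit of glycolytic tissues, followed at 19279 ± 1168. Tmsb4x led Eef1a1 on every array, but the ranges of the 3 arrays overlapped even between these 2 genes.

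Megakaryocyte genes stood among these housekeeping messages rather than below them. Thbs1 encodes thrombospondin 1, a large alpha granule protein, and its signals of 19973.6, 19106.7 and 18460.4 gave it ranks of 9, 5 and 19 on A, B and C and rank 12 overall. Tsc22d1, which encodes a leucine zipper protein, read 18740.1, 18131.8 and 19366.3. Slc6a4, the serotonin transporter with which platelets take up the amine, read 18036.9, 17906.4 and 18515.9, with B again the lowest. Clec1b, the receptor for podoplanin, read 18496.8, 17312.4 and 18586. Rap1b, the small GTPase that switches platelet integrins on, read 17171.9, 16734.4 and 17758.7. The iron store gene Fth1 stood at 17514 ± 527, cytoplasmic beta-actin, Actb, at 18016 ± 749, and the membrane protein gene Itm2b closed the 30 brightest at 17140.7 ± 587.

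Of the 30 brightest genes, 15 encode cytosolic ribosomal proteins and 3 are on the list of megakaryocyte markers, and among the 100 brightest these numbers were 28 and 14. The ribosomal genes in the first 30, after Rpl41, were Rps3a1, Rpl37a, Rps29, Rplp2, Rpl38, Rps18, Rps3, Rpl6, Rps7, Rps28, Rpl13a, Rpl35, Rpl7a and Rpl4, between 19634 and 17244. The order within the first 30 was loose. Of the 29 pairs of neighbouring genes, 3 kept their order on each array and 0 had ranges that did not overlap, and the 30 genes held ranks between 1 and 37 on single arrays. The signal was spread over many genes. The brightest 10 genes held 1.11% ± 0.044 of the summed gene signal, the brightest 100 held 9.0% ± 0.213, and the brightest 1000 held 45.6% ± 0.449.

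Some abundant messages are left out of this ranking because their probe sets name several genes. There are 932 such probe sets, of which 100 read over 10000, and 34 of the 9160 probe sets with no named gene did so too, beside 247 ranked genes. A probe set shared by both adult alpha-globin genes read 19149.7, 17934.1 and 19208.9, and one shared by 4 adult beta-globin genes read 19475.5, 17273.1 and 18935. Ferritin light chain, which shares its probe set with a pseudogene, read 19292.5, 17394.3 and 18342.2, and Gapdh, which shares one with several other entries, read 19678.3, 16993.8 and 18630.4. With shared probe sets credited to each gene they name, an alternative added after the data were seen, 13 of the 30 brightest genes stayed among the first 30. With the probe sets of each gene averaged, 18 did.

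Genes of the platelet surface were bright as a group. The receptor for von Willebrand factor consists of products of Gp1ba, Gp1bb, Gp9 and Gp5, and the 3 with a named probe set here read 16548 ± 534 for Gp1bb, 13932 ± 484 for Gp9 and 13459 ± 655 for Gp5. Gp6, the collagen receptor, was lower at 5831.8, 4964.5 and 5198.8, whereas its signalling partner Fcer1g stood at 13726 ± 388. Itgb3, the partner of Itga2b in the fibrinogen receptor, read 17636.6, 16028.2 and 17400.2. Treml1, a receptor kept in alpha granules, stood at 15955 ± 679, and Cd9, a tetraspanin of the platelet membrane, at 16709 ± 436. Apart from Fcer1g, B was the lowest array for every gene given here, as the plot of markers on each array shows.

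**Figure D2:**
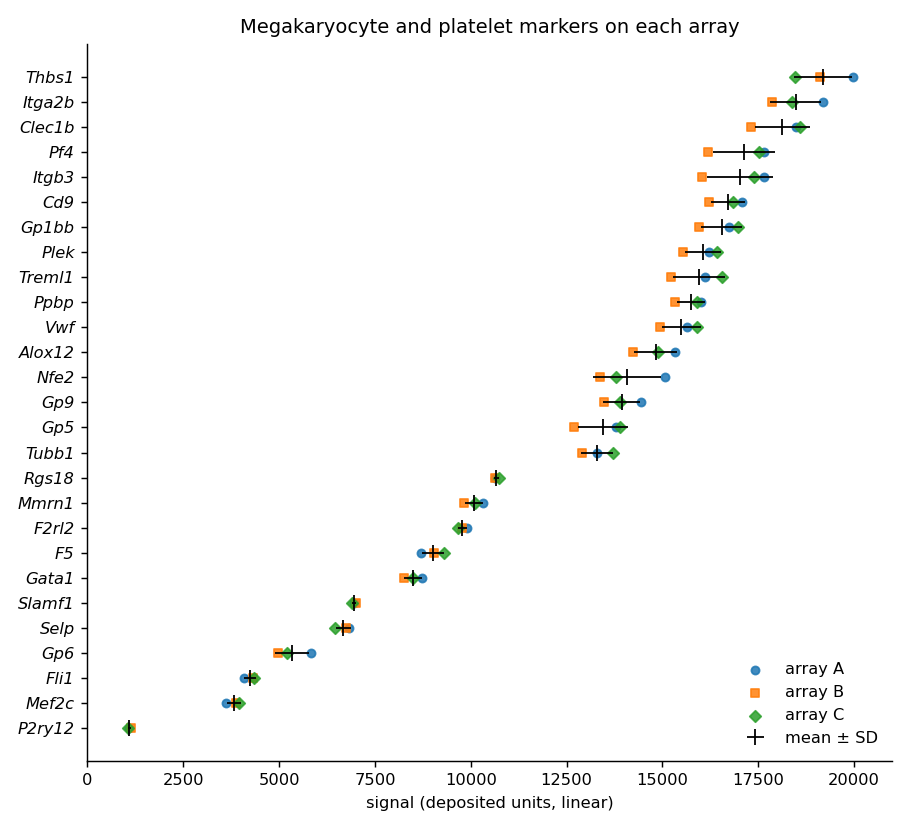
Signals of the 27 megakaryocyte and platelet markers (y axis) on arrays A, B and C (coloured symbols; x axis, linear signal from 0), with the mean and SD as black bars. Most markers above 10000 have B as their lowest array, and P2ry12 at 1089 ± 39.1 is the dimmest.

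Of the 15 named platelet receptors for soluble agonists, 12 were above background. F2r, which encodes the thrombin receptor PAR1, was the brightest at 13171 ± 440.5, followed by F2rl2, the PAR3 cofactor, at 9779 ± 113, and F2rl3, which encodes PAR4, at 4029 ± 158. Mouse platelets are known to respond to thrombin through PAR3 and PAR4. The ADP receptors P2ry1 and P2ry12 read 3808 ± 166 and 1089 ± 39.1, and the ATP-gated channel gene P2rx1 read 7398 ± 82.7. The prostanoid receptors Ptger3, Ptgir and Tbxa2r stood at 3602 ± 172, 2670 ± 72.6 and 1108 ± 93.8. Ccr4 was at background with 21.7 ± 8.91, and P2ry2 and Hrh1 passed the limit on some arrays only.

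Granule cargo divided into a bright and a dim set. Of 25 named alpha granule proteins, 22 were above background and 18 exceeded 10 times the limit. Beside Thbs1, Pf4 and Vwf, the bright set held Ppbp, the precursor of a neutrophil-attracting chemokine, at 16010.3, 15316.5 and 15888.8, and Tgfb1 at 15476.5, 14857.7 and 15417.5. Clu (clusterin), Srgn, the proteoglycan core that holds granule cargo, and F13a1, the A subunit of coagulation factor XIII, read 14960.5 ± 411, 14745 ± 417 and 12766 ± 437. Coagulation factor F5 read 9015 ± 291 and the factor-binding multimerin gene Mmrn1 10081 ± 243. The fibrinogen chain genes Fga, Fgb and Fgg were at background, at 4.37 ± 0.987, 6.9 ± 2.35 and 17.4 ± 14.8, fibrinogen being a cargo that platelets are known to take up from plasma. Sparc, Egf and Timp1 passed the limit with 212 ± 47.1, 111 ± 8.93 and 111 ± 7.66.

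All 25 genes for making and secreting granules were above background, with a median of 3039. Rab27b, a GTPase of granule release, led at 14964.1, 14256.9 and 15209.1, and Vamp8, the main membrane fusion protein of platelet secretion, stood at 6539 ± 116. Nbeal2, which alpha granules need to form, read 3222 ± 272, and its partners in granule biogenesis Vps33b and Vipas39 read 1976 ± 79.9 and 1313 ± 13.5. Among dense granule genes the vesicular amine transporter Slc18a2 read 1460 ± 72.6, below Slc6a4, and the serotonin-making enzymes Tph1 and Tph2 read 278 ± 29.5 and 4.17 ± 2.48, of which Tph2 was at background.

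Signalling from receptor to integrin was measured throughout, since all 40 named genes of platelet activation were above background and 35 exceeded 10 times the limit. At the adhesion end, Fermt3, the kindlin that activates integrins in blood cells, read 17137, 16539.5 and 17654.6, and talin, Tln1, stood at 13986 ± 655. The adaptors Lat and Lcp2 read 10014 ± 186 and 8537 ± 184, and Syk, the kinase that starts signalling from Gp6 and Clec1b, stood at 6849 ± 377. Plcg2 and Btk, which act downstream of Syk, were similar in signal at 7650 ± 369 and 7432 ± 340.2. Apbb1ip, the adaptor known to link Rap1 to talin in other leukocytes, was among the dimmest at 143 ± 10.6, and the calcium channel gene Itpr3 was the lowest of the 40 at 82 ± 2.05.

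Of the 31 named megakaryocyte transcription factors, 30 were above background, and Gfi1, a factor of granulocytes, was the exception at 22.3 ± 17.2. Nfe2, the factor for the last steps of platelet formation, was the brightest at 15075.8, 13366.3 and 13794.4. Tal1, which nucleates a complex with GATA1 and LMO2, stood at 10158 ± 183, the FOG1 gene Zfpm1 at 9733 ± 203 and Lmo2 at 7960 ± 189.7. Gata1 read 8723.7, 8246.5 and 8495.6, and Gata2, which precedes it in progenitors, read 2439.9, 2567.9 and 2433.4. Gata1 was 3.42 times Gata2, between 3.21 and 3.58 on single arrays, which is within the range seen between probe sets of 1 gene. Fli1, Runx1 and Mef2c read 4248 ± 151, 2111 ± 98.4 and 3820 ± 179. Myb, a progenitor factor, stood at 623 ± 47.4, and the red cell factor Klf1 at 320 ± 38.

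Genes of the cell cycle were measured at a middle level. Of 28 named DNA replication genes 27 were above background with a median of 900, and of 28 genes of mitosis and cytokinesis 27 were, with a median of 895. The replication clamp Pcna was the brightest of the former at 9683 ± 126, and among the latter Ube2c, which acts in mitotic exit, stood at 3401 ± 40.2 and the proliferation marker Mki67 at 2979 ± 61.2. Ect2, which starts the cleavage furrow, passed the limit on some arrays only, at 64.7 ± 22, and Rhoa, the GTPase it activates, read 8381 ± 323. Housekeeping pathways stood higher. The 49 named ribosomal protein genes had a median of 14960.1, the 78 subunits of the respiratory chain and ATP synthase 4836 and the 39 proteasome subunits 4206. For some ribosomal genes this level is that of a dim single-gene probe set only, as with Rps16, which read 2.73 by that probe set while a shared one read 16913.

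Several groups not specific to megakaryocytes were measured in full. All 17 named interferon-stimulated genes were above background, led by the antiviral gene Rsad2 at 9351 ± 254, and all 16 cholesterol synthesis genes exceeded 10 times the limit, with Idi1, an isoprenoid isomerase, at 12083 ± 253. Immediate early genes, which growth factors and stress induce quickly, were all above background too, with Zfp36 at 6372 ± 196 and Fos at 6209 ± 251. In contrast, the stress-inducible chaperone genes Hspa1a and Hspa1b were above background but dim at 90.4 ± 9.81 and 162 ± 18.9. Hspa8, their constitutive relative, read 14382 ± 723, and the median of all genes was 184. Xist, expressed from the inactive X chromosome of female cells, read 4922.7, 4840.3 and 4819.9, and the Y-linked genes Eif2s3y, Uty and Kdm5d read 656 ± 73.8, 351 ± 18.3 and 246 ± 20.1, so both kinds were above background on every array.

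Which member was brightest was asked of 88 families that had at least 2 named members and a brightest member above background. Some of these lists join partners or cofactors rather than paralogs only, as with Cbfb and Runx1, Lmo2 and Ldb1, or Orai1 and Stim1. Their ratios are among those counted here. In 86 the same gene was brightest on each array. The exceptions were the MEF2 factors, with Mef2c at 3820 ± 179 and Mef2a at 3797 ± 138, and the D-type cyclins, with Ccnd3 at 9866 ± 289 and Ccnd2 at 9847 ± 473, and in neither pair do the members differ beyond the spread of the arrays. The brightest member was a median of 1.79 times the second, and in 50 families the ratio was under 2, a lead within what probe sets of 1 gene show. In 16 families the ratio exceeded 15.0, the value that 1 gene in 10 exceeds between its own probe sets. In 70 of the 88, the brightest member was the same under all 8 alternative settings tried, and so it was in all of these 16 except Aldoa with Aldoc and Hbb-y with Hbb-b2. Of the 5 families that changed without probe sets that can match several transcripts, 3 did so because the brightest member had no probe set left, namely those of Actg1, F2r and Aldoa.

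**Figure D3:**
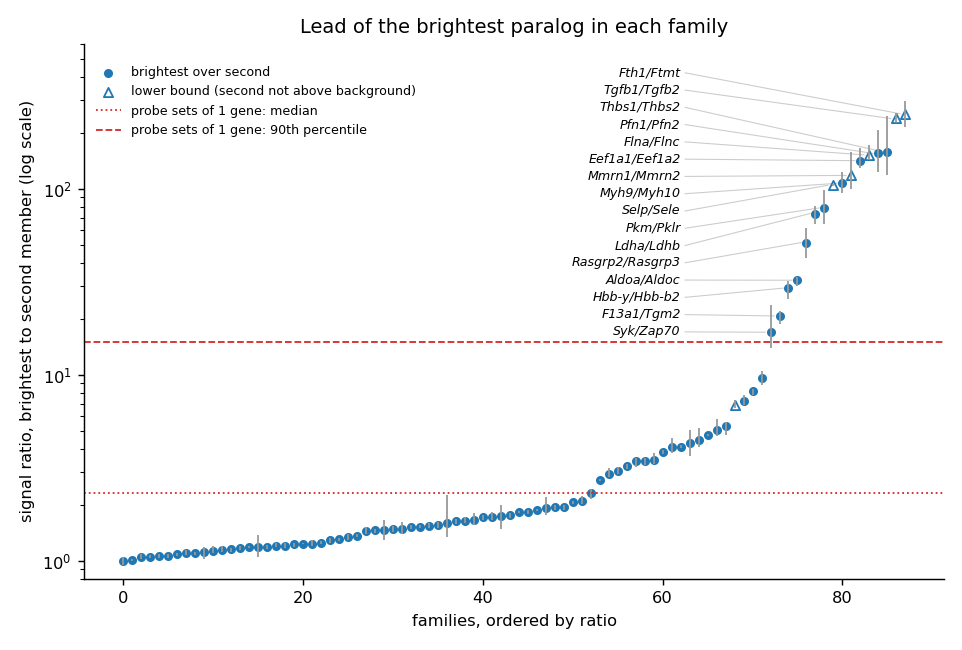
Ratio of the brightest to the second member's mean signal (y axis, log scale) in 88 gene families ordered by it (x axis), with grey bars from the lowest to the highest array. Triangles are lower bounds where the second member was not above background, and red lines mark the median (2.31) and 90th percentile (15.0) of the same ratio between probe sets of 1 gene. The 16 families above the upper line are labelled.

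Cytoskeletal and adhesion families supplied 3 of the wide leads. Myh9, the nonmuscle myosin heavy chain of platelets, stood at 14628, 13456.4 and 14415.3 and was 107 times Myh10, at 132 ± 16.8. Flna, the filamin that anchors the receptor for von Willebrand factor, read 10215 ± 219, at least 152 times Flnc, at 67.1 ± 6.05. Pfn1 read 16336 ± 531, which was 155 times Pfn2 at 106 ± 26.5. Other families of the cytoskeleton were shared between members. Tubb1 at 13298 ± 414 was followed by Tubb5 at 11019 ± 374 and Tubb4b at 10256 ± 274, and all 8 named beta-tubulins were above background. Tuba4a led Tuba1a, at 12929 ± 389, by 1.53 times, but not when all probe sets of a gene were averaged. Only 4 of the 8 listed alpha-tubulins were named, and a probe set that Tuba1b shares with another entry read 12607.5 ± 263. Actg1 led Actb by 1.15 times, by a single probe set that can match several transcripts. Tmsb4x was 1.72 times Tmsb10, at 12898 ± 609, and Cfl1, the actin-severing cofilin, was 2.32 times Dstn, at 13862 ± 889.5 against 5987 ± 112. Among tropomyosins Tpm4 at 13501 ± 433 came before Tpm3 at 10906 ± 365, and among alpha-actinins Actn4 at 7539 ± 180.5 before Actn1 at 6649 ± 156. Myl12a, a myosin light chain, was 3.05 times Myl12b, at 9633 ± 199 against 3161 ± 70.1.

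Adaptors, GTPases and motors came next. Fermt3 was 1.22 times Tln1. Vasp was 3.43 times Enah, at 7493 ± 157 against 2182 ± 123. Wasf2 and Was read 5858 ± 135 and 5133 ± 150.0, an order that turned with averaged probe sets. The cytoskeletal GTPase genes Rac1 and Cdc42 read 13906 ± 512 and 11575 ± 361, and Rap1b was 1.64 times Rap1a, at 10528 ± 449. The membrane skeleton gene Sptbn1 was 2.72 times Sptan1, at 8624 ± 168 against 3174 ± 84.4, and this order too turned with averaged probe sets. Septin7 led the septins at 6924 ± 74.8, before Septin11 at 5123 ± 126, but with averaged probe sets Septin9 was the brightest. Kif5b, a microtubule motor, was 4.09 times Klc4, at 5654 ± 209 against 1382 ± 105, and Dynll1 was 1.83 times Dynll2, at 10397 ± 127 against 5667 ± 88.8.

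Among secreted proteins the lead of the platelet member was wide. Thbs1 was 159 times Thbs2, at 121 ± 37.4. Mmrn1 was at least 118 times Mmrn2, at 79.4 ± 27.8, a multimerin of endothelium. Selp, the selectin of alpha granules, read 6823.9, 6745.7 and 6468.6 and was at least 104 times Sele, at 4.5 ± 1.15. Tgfb1 was at least 239 times Tgfb2, at 33.6 ± 21.6, and F13a1 was 20.7 times the other transglutaminase Tgm2, at 616 ± 40.3. Pdgfb was 8.13 times Pdgfc, at 2553 ± 76.4 against 314 ± 18.1. Chemokines differed, since Pf4 and its neighbour Ppbp were within 1.09 times of each other and both stood far above Cxcl2, the third of 14 named CXC genes at 1551 ± 155. The CC genes Ccl9 and Ccl6, which are chemokines of myeloid cells, read 5217 ± 348 and 4665 ± 93.6.

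Leads in the receptor and transporter families given next were 4.72 times or less. Itga2b was 1.64 times Itga6, the laminin receptor subunit at 11235 ± 240.2, and 13 of 16 named alpha subunits were above background, among them Itga2, the collagen receptor subunit, at 199 ± 19.6. Itgb3 was 1.76 times Itgb2, the leukocyte subunit at 9686 ± 268, ahead of Itgb1 at 7434 ± 118. Gp1bb was 1.19 times Gp9, an order that turned with averaged probe sets, and F2r was 1.35 times F2rl2, by probe sets that can all match several transcripts. P2ry1 was 3.5 times P2ry12. Cd9 was 1.83 times the next tetraspanin, Cd81 at 9140.5 ± 396. The SLAM receptors Slamf1 and Cd84 read 6947 ± 55.5 and 6526 ± 149. Among hexose transporter genes Slc2a3 was the brightest at 17085 ± 727, which was 4.72 times Slc2a1 at 3619 ± 127.

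Signalling families held 2 of the wide leads. Syk was 16.9 times its T cell relative Zap70, at 404 ± 86.4, although the ratio fell to 14 on 1 array. Rasgrp2, which encodes the exchange factor that loads Rap1 in platelets, read 6625 ± 118 and was 51.3 times Rasgrp3, at 129 ± 23.9. Rgs18, a brake on G protein signalling in platelets, read 10628.8, 10628.1 and 10737.6 and was 4.1 times Rgs1, at 2604 ± 67.5. Plcg2 was 4.3 times Plcb4, at 1778 ± 207. Atp2a3 led the calcium pumps by 1.51 times over Atp2a2, at 11635 ± 436 against 7687 ± 164, and Orai1 was 2.09 times Stim1, at 3686 ± 254 against 1760.4 ± 32.3. Itpr2, a calcium release channel gene, was 4.47 times Itpr3, and these were the only 2 named of the 3 listed members. Gnas led the G protein alpha subunits at 15379 ± 704, before Gnai2 at 9269 ± 522, except with averaged probe sets or without those that can match several transcripts. Btk was 1.46 times Tec, at 5103 ± 289, Fyn was 1.74 times Src, at 2197 ± 55.2 against 1262 ± 207, and Prkcq was 1.17 times Prkcd, at 7052 ± 322 against 6025 ± 131. The Src kinase genes Lyn and Lck were not analysed here. Jak1 and Jak2 read 4610.1 ± 57.2 and 2675 ± 119.8, and Stat3 and Stat6 read 3648 ± 63.6 and 1880.1 ± 28.7.

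The lipid mediator gene Alox12, the lipoxygenase of platelets, read 15333.8, 14231.2 and 14897, and was 1.88 times Alox5, the leukocyte lipoxygenase at 7902 ± 220.0. In the fusion machinery Vamp8 was 1.24 times Vamp3, at 5283 ± 117. Snap23 was 5.28 times Snap29, at 5961 ± 304 against 1129 ± 44.2, and the brain gene Snap25 was at background. Stx11, which platelet secretion needs, was 1.25 times Stx7, at 5891 ± 131 against 4702 ± 116, an order that turned with averaged probe sets. Rab27b was 3.23 times Rab38, at 4590 ± 213.

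Transcription factor families led by less than 10 times. Zfpm1 was 1.52 times Gfi1b, at 6404 ± 234, an order that turned with averaged probe sets. Nfe2 was 1.48 times Nfe2l2, at 9495 ± 116, and Mafg, one of the small Maf partners of NF-E2, was 2.94 times Mafk, at 3657 ± 61.2 against 1243 ± 85.4. Tal1 was 1.3 times its relative Lyl1, at 7792 ± 48, and Lmo2 was 7.24 times its cofactor gene Ldb1, at 1099 ± 65.8. Of 23 named ETS genes 16, or 69.6%, were above background, against 64.1% of all genes. Fli1 was followed by Elf1 at 3878 ± 265, while Erg was at background at 11.2 ± 3.18. The RUNX cofactor gene Cbfb was 1.18 times Runx1, at 2498 ± 249. Klf6 was 1.57 times Klf7, at 5210 ± 96.4 against 3326 ± 172. Mrtfa, an actin-sensing cofactor of SRF, was 3.83 times Mrtfb, at 4097 ± 103 against 1069 ± 31. Mycn led Myc at 1538 ± 212 against 802 ± 46.5 and Ikzf2 led Ikzf5 at 1461 ± 42.9 against 999 ± 129.7, and both orders turned with averaged probe sets.

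In the cell cycle and survival families, Ccnd1 was far below the other D-type cyclins at 736 ± 22.1. Ccna2 was 5.06 times Ccne1, at 2517 ± 156 against 497 ± 28.1. Cdkn2d, the CDK inhibitor p19, was 2.06 times Cdkn1a, at 9320 ± 146 against 4519 ± 91.4. Mcl1 was 1.45 times Bcl2l1, at 6936 ± 204 against 4793 ± 182, both being survival factors of the platelet lineage.

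Families of metabolism, iron storage and translation held 5 of the wide leads. Ldha was 73.6 times Ldhb, at 262 ± 26.1, and Pkm was 78.8 times Pklr, the liver and red cell pyruvate kinase, at 13187 ± 566 against 167 ± 37.3. Aldoa was 32.2 times Aldoc, at 13835 ± 619 against 429 ± 6.31, but all single-gene probe sets of Aldoa are of the kind that can match several transcripts, and without these none is left for it. Fth1 was at least 253 times Ftmt, at 41.6 ± 36.2, with the light chain left out as given above. Eef1a1 was 142 times Eef1a2, at 148 ± 17.7. Hk1 was 9.62 times Hk3, at 7375 ± 318 against 766 ± 105. Eno3 read 441 ± 38.2 and Eno2 was at background at 50.7 ± 7.48, while Eno1 was not analysed here.

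Among stress and housekeeping proteins, Hspa5, the chaperone of the endoplasmic reticulum, was 1.18 times Hspa8, at 16954 ± 621. Hsp90aa1 was 1.48 times Hsp90b1, at 10737 ± 134 against 7271 ± 327, an order that turned with averaged probe sets. Prdx3 was 1.29 times Prdx2, at 7219 ± 133 against 5600 ± 74.3, and a probe set that Prdx1 shares with another entry read 11385 ± 488. Ywhah and Ywhaz led the 14-3-3 genes at 13262 ± 249.9 and 12599 ± 458. S100a10 was 1.96 times S100a1, at 10819 ± 89.8 against 5533 ± 209, and Anxa5 was 1.05 times Anxa7, at 6013 ± 218 against 5724 ± 95. The lysosomal proteases Ctsd and Ctsb stood within 1.06 times of each other, at 17100.5 ± 757 and 16191 ± 551.

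Globins stood apart in what the arrays can resolve. The single-gene probe set of the embryonic beta-like globin gene Hbb-y read 9560, 9730 and 9952.5, and was 29.2 times that of Hbb-b2, at 334 ± 48.9. This lead is not one over the adult beta globins, because the probe set that 4 of them share read about as bright as the brightest single genes, as given above, and crediting it to them moved the lead to an adult gene. The single-gene probe sets of Hba-a1 and Hba-a2 likewise read 98.4 ± 30 and 157 ± 14.4 beside the shared 18764 ± 720. Embryonic Hba-x was at background at 11.6 ± 2.14, and Hbb-bh1 passed the limit on some arrays only.

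Genes of other lineages were then read against the same limit. The 14 other marker lists hold 290 named entries, of which 57.9% were above background, 23.8% (69 entries) were at background and 17.2% exceeded 10 times the limit. With 2 times the limit, 141 of the entries would be at background. Over all genes the same shares were 64.1%, 22.4% and 30.2%, so the share at background was close to that of any gene and fewer markers were bright. The lists differed widely among themselves. Medians ran from 49.2 for B cells to 783 for macrophages and monocytes, and shares above background from 20% for germ cells to 92% for red cells. Those of T and NK cells (64.7%), endothelial cells (65%) and stem and progenitor cells (66.7%) lay near the 64.1% of all genes. Mast cells, basophils and eosinophils (76.2%), macrophages and monocytes (76.7%) and neutrophils (78.9%) lay above it.

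**Figure D4:**
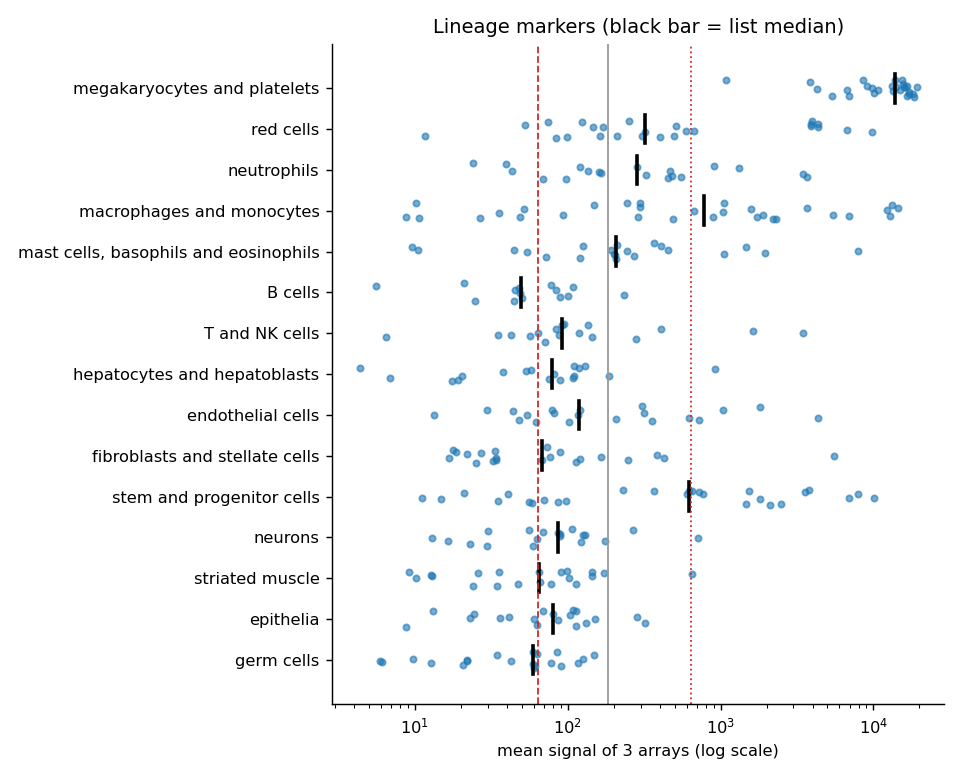
Mean signal of each marker gene (points; x axis, log scale) in 15 lineage lists (y axis), with the list median as a black bar. The dashed and dotted red lines are the background limit and 10 times it, and the grey line is the median of all genes at 184. The megakaryocyte list has the highest median, although single genes of other lists overlap with it, and those of B cells and germ cells have medians below the limit.

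Macrophage and monocyte markers had the highest median of the other lists at 783, before stem and progenitor cells at 623 and red cells at 320, while neutrophil markers had 282 and those of mast cells, basophils and eosinophils 206. Of 30 named macrophage and monocyte markers 23 were above background and 15 exceeded 10 times the limit, and the list summed to 85458, 82152 and 85668 on A, B and C, against 339272, 321871 and 335341 for the megakaryocyte list. All 5 defining markers were above it: Csf1r, the receptor for the macrophage growth factor, read 6820.6, 6944.9 and 7050.8, Cd68 3690 ± 148, Adgre1 2311 ± 161, Mrc1 1594 ± 33.5 and Cd14 893 ± 71.1. The lysozyme genes Lyz1 and Lyz2 read 14593 ± 559.6 and 13291 ± 679, near-identical copies whose signals probes may not separate and whose order turned under 2 alternatives. Gpnmb and Lgals3, genes of phagocytes, read 12788 ± 299.8 and 12270 ± 362, and the perforin-like gene Mpeg1 5426 ± 62.4. In contrast, the tissue macrophage genes Cd163, Marco, Spic, Timd4 and Clec4f were all at background, between 8.8 and 35.2. What share of the signal of any gene came from macrophages in the preparation was not tested.

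Of 19 named neutrophil markers 15 were above background and 4 exceeded 10 times the limit. S100a9 and S100a8, subunits of calprotectin, read 3659 ± 59.3 and 3447 ± 81.3, Ngp 1317 ± 62.7 and Mpo 906 ± 35.2. Elane, a granule protease of promyelocytes, read 120 ± 17.9, and Cxcr2, Padi4 and Cd177, genes of the mature neutrophil, were at background. Of 21 mast cell, basophil and eosinophil markers 16 were above background and 4 exceeded 10 times the limit, among them Slc18a2 and Alox5, which were given above. The mast cell protease genes Cpa3 and Mcpt2 read 1967 ± 33.4 and 1053 ± 215, and Mcpt4 and Ms4a2 201 ± 30.8 and 121 ± 18.7. Fcer1a and Tpsab1 passed the limit on some arrays only, and the eosinophil genes Prg3 and Ccr3 were at background.

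By their single-gene probe sets, red cell genes were mostly above background at a low level, apart from a few. Of 25 named members 23, or 92%, were above background, against 64.1% of all genes, and 7 exceeded 10 times the limit, with a median of 320. Beside Hbb-y, the 7 were Tfrc, the transferrin receptor, at 6766 ± 63, Epor, the erythropoietin receptor, at 3990 ± 94.7, Car2, Gypc, Cd59a and Hemgn, between 3918 and 4373, all of which are expressed in other blood cells as well. The band 3 gene Slc4a1 read 495 ± 10.4, the heme synthesis gene Alas2 597 ± 75.8 and the membrane skeleton gene Epb42 74.7 ± 7.13. Hbb-b1 and Ahsp were not analysed here, and the list holds Hba-a1 by its dim single-gene probe set rather than the bright shared one. Its median and sums thus leave out the shared probe sets of adult alpha and beta globins, which read 18764 and 18561. The list summed to 41608, 41793 and 41849 on the 3 arrays.

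Stem and progenitor genes divided. Of 27 named members 18 were above background and 12 exceeded 10 times the limit. Tal1, Lmo2, Slamf1, Gata2, Runx1 and Meis1 were among the 12, and these are expressed in megakaryocytes too. Angpt1, a ligand for the receptor Tie2, read 3815 ± 25.5 and Meis1 3543 ± 67. The growth factor receptor gene Kit read 365 ± 37, Cd34 228 ± 19.1 and Mecom 86.4 ± 19.3. Flt3, Hoxa7, Procr, Prom1 and Erg were at background, and Hoxa9 passed the limit on some arrays only.

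Lymphoid genes were mostly near the limit. Of 14 named B cell markers 4 were above background and 0 exceeded 10 times the limit. Ighm, the immunoglobulin heavy chain constant region, was the brightest at 233 ± 10.4, Ms4a1 read 77.7 ± 9.63, and Cd79b, Pax5, Vpreb1 and Rag1 were at background, while Cd79a passed the limit on some arrays. Of 17 T and NK cell markers 11, or 64.7%, were above background, near the 64.1% of all genes. Cd28, a costimulatory receptor of T cells, read 3586.6, 3252 and 3478.2, and Il7r 1632 ± 97.7, and these were the 2 that exceeded 10 times the limit. The T cell receptor complex genes were not bright, with Cd3d at background at 6.43 ± 1, Cd3e and Cd3g over the limit on some arrays only, and Cd4 and Cd8a at 135 ± 39.2 and 281 ± 42.2.

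The hepatocyte, endothelial and fibroblast lists had medians of 78.5, 119 and 67.5, against 184 over all genes. Of 18 named hepatocyte and hepatoblast markers 8 were above background, and Afp, alpha-fetoprotein, was the only member of the list over 10 times the limit at 881.6, 944.1 and 912.3. Alb read 109 ± 21.2, Ttr 81.1 ± 6.61 and Apoa1, at background, 19 ± 21.5, while Apoa2 passed the limit on some arrays. The list summed to between 2075 and 2212. Of 20 endothelial markers 13, or 65%, were above background, near the 64.1% of all genes, and 3 exceeded 10 times the limit, namely Pecam1 at 4320 ± 203, Esam at 1813 ± 55 and Eng at 1041 ± 59.9. The first 2 are adhesion molecules that platelets carry as well. Kdr, Tie1 and Tek read 720 ± 93.2, 625 ± 99.7 and 208 ± 67.2, and Cdh5, which holds endothelial junctions together, passed the limit on some arrays only. Of 21 fibroblast and stellate cell markers 9 were above background and 10 at background, Col3a1 among the latter at 32.6 ± 20.6, with Col1a1 at 121 ± 34.5, Col1a2 at 382 ± 43 and Dcn at 73.7 ± 11.7. Pdgfra passed the limit on some arrays. Reln, the secreted glycoprotein reelin, was the exception at 5679.6, 5325.8 and 5666.1, the only member of that list over 10 times the limit.

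Markers of lineages far from blood were read against the same limit. Of neuronal, striated muscle, epithelial and germ cell markers, 8 of 19, 8 of 20, 8 of 19 and 4 of 20 were above background, and of 38 olfactory receptors and 48 keratins, 7 and 13. Their medians were 86.2, 65.2, 80 and 59.4 for the cell types and 43.6 and 47.9 for the receptor and keratin genes. The first 5 neuronal genes gave 714 ± 34.5 for Tubb3 and 176 ± 42.2 for Rbfox3, 126 ± 31.7 for Syt1, a passing signal on some arrays for Map2 and background for Snap25. In muscle Ckm and Acta1 read 145 ± 8.38 and 90.8 ± 17.7, Myh1 and Myh2 were at background and Myod1 passed on some arrays. In epithelia Cdh1, Krt5, Krt14 and Epcam read 80 ± 2.17, 150 ± 20.9, 109 ± 24 and 322 ± 202, the last with 553.1 on A against 234.5 and 178.1 on B and C, and Krt8 passed on some arrays. Among germ cell genes Prm1 read 90.2 ± 19.2, Ddx4 and Tnp2 were at background, and Dazl, Prm2 and Tnp1 passed on some arrays. The highest signals in these 4 lists were 714, 650, 322 and 149. The neuropeptide gene Npy, in none of these lists and named after its value was seen, read 15225.7, 14453.1 and 15363.6, rank 67.

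The spread between the 3 arrays was small where the signal was high. Over genes above background the median CV was 6.54%, and the median SD of log2(signal + 32) was 0.088. By level, the median CV fell from 41.5% below a signal of 100 to 15.0% at 100 to 300, 6.81% at 300 to 1000, 3.83% at 1000 to 3000 and 2.72% at 3000 to 10000, and it was 3.12% in the 247 genes over 10000. Correlations of log2 values between pairs of arrays, across all genes and thus not across independent replicates, were 0.984 to 0.985. Of the genes above background, 32 differed by more than 2-fold between A and B, 22 between A and C and 21 between B and C. No pair of arrays shared more than 0.233% identical signals.

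Genes that varied most were sought among the 2000 brightest, where the median SD was 0.041 and the highest 0.35. Pik3cd, the leukocyte form of the PI3 kinase catalytic subunit, varied most with 3160.5, 1934.7 and 2667.7, low on B. Ndufs8, a subunit of respiratory complex I, went the other way with 4383.4, 6820.1 and 5361.5, high on B. Hyou1, a chaperone of the endoplasmic reticulum, read 2155.1, 2728.4 and 3346.1, and Golph3, a Golgi protein gene, 3244.5, 4986.8 and 4278.3. These 4 were the only ones of the 2000 to vary by more than 1.5-fold between arrays, and 0 varied by more than 2-fold. The next 8 were Hnrnpl, Api5, Casp4, Sf3b6, Fkbp8, Hectd4, Msmo1 and Clptm1, with ratios of the highest to the lowest array between 1.32 and 1.42. The 12 have between 1 and 6 probe sets each, and megakaryocyte markers were not among them.

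**Figure D5:**
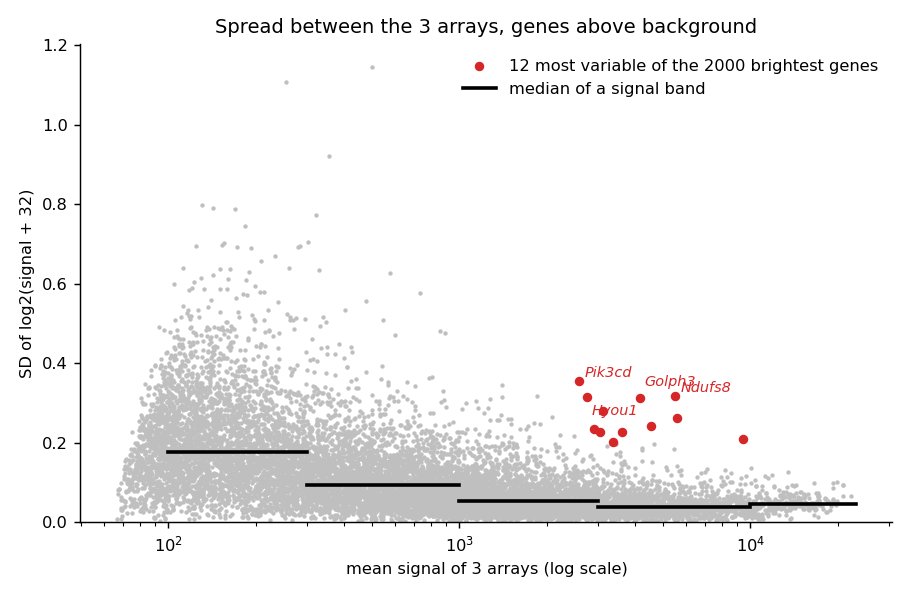
SD of log2(signal + 32) over the 3 arrays (y axis) against mean signal (x axis, log scale) for the genes above background (grey points), with the median of each signal band as a black line and the 12 most variable of the 2000 brightest genes in red. Bright genes lie near the axis, and the 4 labelled genes are those that varied by more than 1.5-fold.

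One array was lower than the others at the top of the range. B was the lowest of the 3 for 210 of the 247 genes over 10000, or 85.0%, against 33 for A and 4 for C, and for 92 of the 100 brightest. For genes between 1000 and 3000, B was lowest in 35.6%. Megakaryocyte markers, being bright, moved with this, and their median deviation from the mean of the arrays was -0.04 on the log2 scale on B, 0.03 on A and 0.01 on C. Ribosomal and other bright genes did so too, and after quantile normalization, which removes such differences by construction, B was lowest for 26 of the 100 brightest. The added control transcripts went the other way, and B was the highest array for 8 of their 9 probe sets, including CreX, whose 3' set read 14181.7, 14668.1 and 14333.2, a level like that of the bright genes. The array medians were 101.6, 104.4 and 101.8, and the log2 differences between the 3' and 5' control probe sets of actin were 0.15, 0.13 and 0.19. The part of these measures in the lower readings of B was not tested.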

How the data were processed

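Wild-type samples were identified by their titles. The deposited table gives, for 45101 probe sets per array, signal intensity on a linear scale, and the mean of each deposited column with 2% trimmed at each end was 500, so the authors had scaled the arrays. Neither the software behind the intensity values nor a genome build is given in the sources used here. A platform annotation gave 34945 probe sets a single gene, 932 several and 9160 none, and the ranking leaves out the 64 controls. Marker lists and families held 1308 entries, of which 1195 had a single-gene probe set. A gene without one is unnamed here and may still be on the array. The members, lists and families were chosen with earlier results of these data known. The genes named are the 30 brightest, the markers and family members, and the 12 of the 2000 brightest that varied most, with others marked.

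Levels are means ± SD of deposited signals, ranked as given. Ratios use the background limit of each array in place of a lower signal and are then bounds. Spread was computed on log2(signal + 32). No test between groups was made, and 3 arrays limit the precision. The steps were tested on simulated data with genes set far from the limit and probe sets of a gene set well apart. Calls near the limit and close probe sets were not simulated. Alternatives were other limits, probe set rules, offsets, quantile normalization and leaving out each array. Promoters are those of RefSeq on GRCm38.p6. Python 3.11.15, numpy 2.4.6, pandas 2.3.3 and matplotlib 3.10.9 were used.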

Additional observations from a re-analysis of the deposited data

How the results depend on the processing

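No paired analysis was possible because the results come from no test between groups. The number of genes above background was 11657, and it ran from 9603 with 2 times the highest bacterial control to 11722 with probe sets that name several genes credited to each, and from 11961 to 12181 with 1 array left out, since fewer arrays then need to pass. Markers of other lineages at background numbered 69 of 290, 141 with 2 times the limit, and 77 to 78 with 1 array left out. Of the 30 brightest genes, 18 stayed when the probe sets of a gene were averaged, 13 with probe sets that name several genes (added after the data were seen), 22 without probe sets that can match several transcripts, and 28 to 29 with 1 array left out. The brightest member was the same in 75 of 88 families with averaged probe sets and in 83 without probe sets that can match several transcripts. Without the latter, 3 of the 5 changes, and 3 of the 8 losses from the 30 brightest, came because no probe set was left. The brightest member was the same in 86 families with shared probe sets and in 87 to 88 with 1 array left out. The median SD of log2 signal was 0.0877, 0.132 when genes not above background were included, and 0.0661 to 0.074 with 1 array left out. Quantile normalization changed none of the counts of genes, markers, brightest genes or families. It keeps the order of signals within each array, controls included, so these counts could hardly have changed and say little about robustness. Signals below about 100, with a median CV of 41.5%, limit any statement on dim genes.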
